A study of Homo sapiens with 8 samples.

Results

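The genes described here are 10 tubulin isotypes, 7 beta tubulins (TUBB, TUBB2A, TUBB2B, TUBB3, TUBB4A, TUBB4B and TUBB6) and 3 alpha tubulins (TUBA1A, TUBA1B and TUBA4A), chosen by gene symbol from the 60554 gene rows of each library. All 10 passed the filter on low counts, which kept 20238 genes. They were measured by bulk RNA-seq in docetaxel sensitive and docetaxel resistant variants of 2 established human lines, DU145 and PC3, each grown out of a prostate cancer metastasis. There were 8 libraries, 2 from the sensitive and 2 from the resistant variant of each line. Resistant cells were kept in medium with 10 nM docetaxel dissolved in DMSO, and sensitive cells in medium with 0.1% DMSO. Each line was thus represented by 1 resistant variant, grown under drug, and the sensitive culture it was set against. The sources used here do not say whether docetaxel was withdrawn before this RNA was taken. The labels do not tell whether both libraries of a group had their own culture. The p-values therefore cover only how far these libraries spread, and that spread may be technical.

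Microtubules are hollow polymers of alpha and beta tubulin dimers, and each dimer subunit is encoded by several genes, the isotypes. Docetaxel binds the beta subunit within the polymer and stabilises it, which blocks the spindle in mitosis. The isotypes differ most in a short acidic tail at the carboxyl end, which points away from the microtubule wall and is read by motors, associated proteins and tubulin modifying enzymes. TUBB, or class I, is the widespread isotype of dividing cells. TUBB2A, TUBB2B, TUBB3, TUBB4A and TUBA1A are best known from neurons, and TUBB3 has been studied as a marker of poor taxane response.

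The last 60 coding bases of the 7 beta isotypes and of TUBA4A, stop codon included, are shown because they encode that tail. These isotypes differ in it, apart from TUBB2A and TUBB2B. All lie in exon 4 of the MANE Select transcript (the agreed reference transcript of a gene) in GENCODE 44 on GRCh38. The beta tubulin ends lie at chr6:30724338-30724397 for TUBB (plus strand), chr6:3153863-3153922 for TUBB2A (minus), chr6:3224751-3224810 for TUBB2B (minus), chr16:89935745-89935804 for TUBB3 (plus), chr19:6495164-6495223 for TUBB4A (minus), chr9:137243497-137243556 for TUBB4B (plus) and chr18:12326071-12326130 for TUBB6 (plus). Each is written 5′ to 3′ on the coding strand, and capitals mark glutamate codons, GAA or GAG.
TUBB: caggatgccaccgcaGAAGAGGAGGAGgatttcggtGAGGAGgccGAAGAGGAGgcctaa
TUBB2A: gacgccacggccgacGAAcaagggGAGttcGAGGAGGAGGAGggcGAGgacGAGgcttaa
TUBB2B: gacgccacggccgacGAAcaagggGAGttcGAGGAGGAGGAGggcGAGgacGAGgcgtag
TUBB3: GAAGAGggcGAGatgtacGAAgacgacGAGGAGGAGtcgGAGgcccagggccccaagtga
TUBB4A: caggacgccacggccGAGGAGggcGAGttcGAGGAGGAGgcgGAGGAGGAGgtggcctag
TUBB4B: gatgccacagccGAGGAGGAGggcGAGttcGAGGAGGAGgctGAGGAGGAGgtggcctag
TUBB6: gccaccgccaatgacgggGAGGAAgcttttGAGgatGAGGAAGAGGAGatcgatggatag
Of 20 codons, stop codon included, between 7 in TUBB6 and 10 in TUBB4B encoded glutamate. TUBB2A and TUBB2B shared 58 of these 60 bases, and the bases that differed changed no amino acid. Their whole coding sequences were 98.1% identical. No other pair of the 7 beta isotypes exceeded 90.1% (TUBB2A and TUBB4A).

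Of the alpha isotypes, the end of TUBA4A lies on the minus strand at chr2:219250352-219250411.
TUBA4A: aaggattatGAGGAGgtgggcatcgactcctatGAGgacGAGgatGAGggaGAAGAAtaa
TUBA4A stops straight after its glutamate codons, without the tyrosine that the detyrosination cycle removes and puts back on other alpha tubulins. The coding sequences of TUBA1A and TUBA1B were 97.2% identical, and their last 60 coding bases were the same.

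These likenesses bear on the counts, since a read from a shared stretch cannot be assigned by its sequence. The share of 50-base windows of the MANE Select transcript found in no other annotated gene was 98.9% for TUBB6, 84.7% for TUBB4B, 71.8% for TUBB4A, 67.3% for TUBB and 65.5% for TUBA4A. It was lower for TUBA1A (49.4%), TUBB2B (45.1%), TUBB2A (35.4%), TUBA1B (12.9%) and TUBB3 (7.2%). For TUBB3, 92.8% of the windows also lay in an annotated read-through gene on the same strand, whose row held 0 counts in all 8 libraries. TUBA1B shared 68.7% of its windows with the antisense gene TUBA1B-AS1, which had 21 to 81 counts per library, and 38.6% with TUBA1A. TUBB2A shared 59.5% of its windows with TUBB2B. TUBA1A also shared 31.6% of its windows with TUBA1C, which overlaps it on the opposite strand. The sources used here do not give how reads with several matches were counted. A shift between TUBB2A and TUBB2B, or between TUBA1A and either TUBA1B or TUBA1C, is uncertain to that extent.

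**Figure D1:**
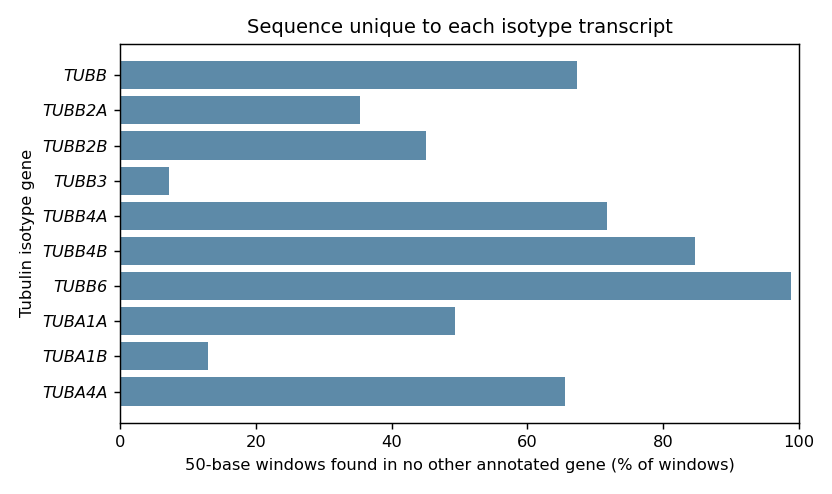
Percent of the 50-base windows of each isotype's MANE Select transcript that occur in no other annotated gene, 1 bar per gene. TUBB6 is at 98.9%, while TUBB3 (7.2%) and TUBA1B (12.9%) are lowest.

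Library totals ranged from 31685148 to 43045127 counts. Levels are given as CPM, a gene's count relative to the total of its library, scaled by TMM, a factor per library that corrects for RNA composition. The 4 prostate epithelial markers (EPCAM, KRT8, KRT18 and CDH1) summed to 2424 to 4123 CPM in DU145 sensitive, 202.3 to 378.3 in DU145 resistant, 294.5 to 421.5 in PC3 sensitive and 432.6 to 538.9 in PC3 resistant libraries. Their low level in resistant DU145 cells goes along with every DU145 difference below, and its part in them was not tested. KRT8 was at 1247 and 2166 CPM in DU145 sensitive libraries and 28.3 and 29.7 CPM in DU145 resistant libraries, and CDH1 was at 0.364 and 0.472 CPM in the latter and at most 6.13 CPM in PC3. EPCAM stayed between 16.9 and 51.6 CPM in the 8 libraries. The summed level of 8 leukocyte, endothelial and fibroblast markers was 5.30 to 7.15 CPM in DU145 sensitive, 5.41 to 6.55 in DU145 resistant, 31.0 to 42.6 in PC3 sensitive and 37.2 to 59.5 in PC3 resistant libraries. CD3E was at 0 counts in all 8 libraries, and COL1A1 at 22.9 to 32.7 CPM in PC3. From sensitive to resistant PC3 libraries, PECAM1 went from 6.67 and 6.97 to 12.6 and 24.4 CPM and LYZ from 0.091 and 0.19 to 0.70 and 5.76. LUM went from 0.762 and 1.82 to 0 and 0, and PTPRC from 0.427 and 0.551 to 0.18 and 0.126. Their part in the PC3 differences was not tested. Since these were bulk samples, fewer cells of a type and less RNA per cell cannot be told apart.

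All members were detected in every library, and TUBB dominated. Levels of different genes are compared here as CPM per kilobase of the MANE Select transcript. This scale allows for length but not for sequence shared between genes. Unique windows made up 7.2% (TUBB3) to 98.9% (TUBB6) of a transcript, so the order of the isotypes holds only for the counts as deposited. On that scale TUBB had means of 506.7 ± 80.4 (SD, n = 2) in DU145 sensitive, 464.9 ± 36.3 in DU145 resistant, 690.9 ± 107.8 in PC3 sensitive and 687.0 ± 21.1 in PC3 resistant cells. TUBB4B (class IVb), another widely expressed isotype, followed at 255.6 ± 60.9, 330.5 ± 85.4, 273.6 ± 49.8 and 315.6 ± 29.6 in the same order. TUBA1B, a widespread alpha isotype of dividing cells, came next after TUBB4B in all 4 groups, at 144.9 ± 30.5, 180.7 ± 28.8, 233.8 ± 34.2 and 244.2 ± 22.5. TUBB6 (class V) was at 91.8 ± 32.3 and 129.2 ± 35.4 in DU145 but 31.9 ± 0.448 and 40.1 ± 4.04 in PC3. The other 6 isotypes had group means from 0.175 (TUBB2B, PC3 sensitive) to 56.2 (TUBA4A, PC3 sensitive).

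**Figure D2:**
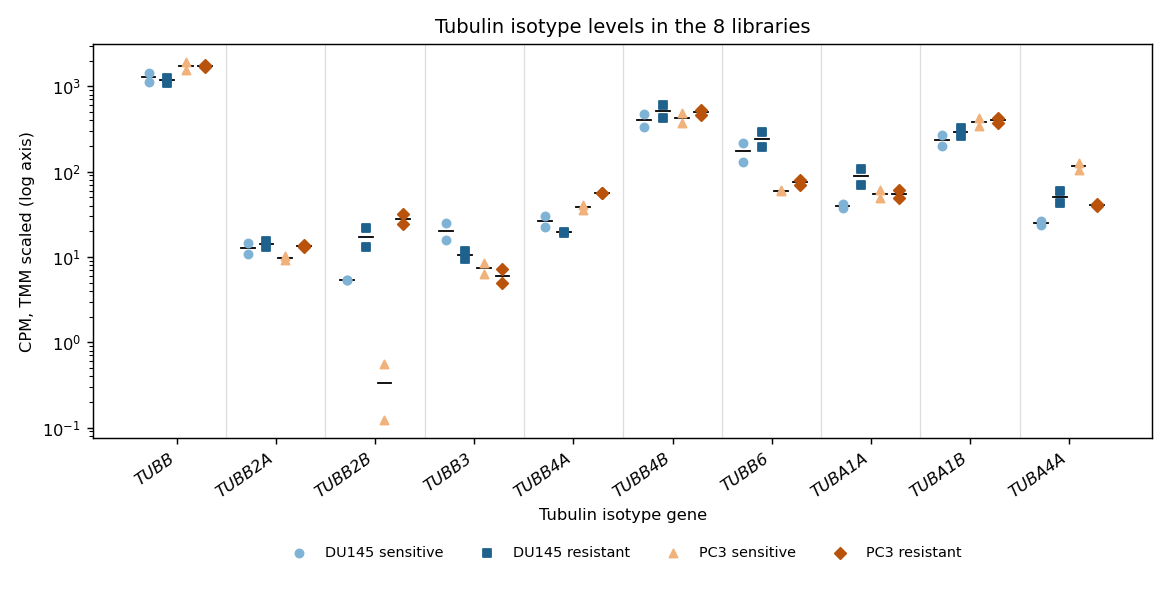
Level of each isotype in the 8 libraries, in CPM on a log axis, with 1 point per library, colour and shape for the group, and a black line at the group mean. TUBB2B spans 0.122 to 32.1 CPM and TUBA4A 23.6 to 125.3 CPM, while TUBB stays between 1105 and 1929 CPM.

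The first comparison asked which isotypes differed between resistant and sensitive DU145 cells. TUBB2B, TUBA1A and TUBA4A were higher in resistant cells and TUBB3 was lower. The other 6 (TUBB, TUBB2A, TUBB4A, TUBB4B, TUBB6 and TUBA1B) did not pass the test. The test was edgeR's quasi-likelihood test with Benjamini-Hochberg adjustment over the 20238 genes at 0.05, and the same test gives every adjusted p that follows. It called 27.8% of all tested genes in DU145, so 4 of 10 members stands against a background of that size, with 3 higher against 12.4% of genes and 1 lower against 15.4%. The median log2 fold change was 0.34 over the 10 members and 0 over all tested genes.

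In PC3, TUBB2B and TUBB4A were higher in resistant cells and TUBA4A was lower. The remaining 7 did not pass. In PC3 35.6% of all tested genes were called, 18.6% higher and 17.0% lower, so 3 of 10 members lies near the background. The median log2 fold change was 0.13 over the members and 0.01 over all tested genes. Resistant and sensitive libraries did not overlap for 5 of 10 members in DU145, where 61.3% of all tested genes did not overlap (29.2% with resistant higher and 32.1% with resistant lower). In PC3 they did not overlap for 5 of 10 either, against 71.2% of all tested genes (36.1% higher and 35.1% lower). With 2 libraries against 2, an exact permutation test of a single value cannot go below p = 0.333 (two-sided).

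**Figure D3:**
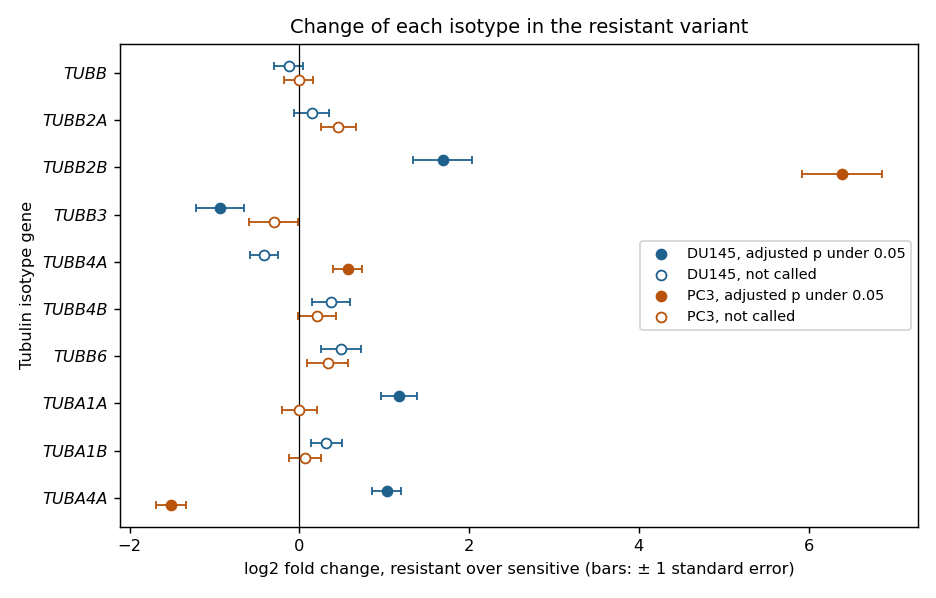
Log2 fold change, resistant over sensitive, of each isotype in DU145 (blue) and PC3 (orange), with bars of 1 standard error and filled points for an adjusted p under 0.05 in edgeR's quasi-likelihood test. TUBB2B is higher in both lines (1.69 and 6.39), and TUBA4A lies at 1.03 in DU145 and -1.51 in PC3.

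TUBB2B, class IIb beta tubulin, is the isotype with the most divergent levels. Its CPM was 5.36 and 5.42 in DU145 sensitive, 13.0 and 21.7 in DU145 resistant, 0.122 and 0.551 in PC3 sensitive and 32.1 and 24.1 in PC3 resistant libraries. Every neighbouring pair of groups in that order of levels was apart, from PC3 resistant at the top through DU145 resistant and DU145 sensitive to PC3 sensitive. In DU145 the log2 fold change was 1.69 (SE 0.35, adjusted p = 0.0048), or 3.22-fold. In PC3 it was 6.39 (SE 0.47, adjusted p = 4.39e-06), or 83.9-fold, on 4 and 17 raw counts in sensitive against 1432 and 953 in resistant libraries. The PC3 size rests on those few sensitive counts, since the log2 fold change was 5.66 without PC3 sensitive replicate 1 and 7.81 without replicate 2, and the call held in both. Such a difference between the lines was called for 34.3% of all tested genes (18.5% with the higher change in PC3 and 15.9% with the lower) and for 4 of the 10 members, TUBB2B and TUBB4A in the first direction and TUBA1A and TUBA4A in the second. The change in PC3 exceeded that in DU145 by 4.70 on the log2 scale (SE 0.58, adjusted p = 0.000177), and by 3.98 and 6.12 without PC3 sensitive replicate 1 or 2. Sensitive PC3 cells were lower than sensitive DU145 cells, with a log2 difference of -4.01 (SE 0.47, adjusted p = 3.75e-05), which was -3.27 and -5.41 without PC3 sensitive replicate 1 or 2.

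TUBB2A, class IIa beta tubulin, did not pass in either line. It was at 14.7 and 10.9 CPM in DU145 sensitive, 15.2 and 13.1 in DU145 resistant, 10.3 and 9.21 in PC3 sensitive and 13.0 and 13.8 in PC3 resistant libraries. The DU145 groups overlapped and the PC3 groups did not. Its log2 fold changes were 0.15 (SE 0.21, adjusted p = 0.646) in DU145 and 0.46 (SE 0.21, adjusted p = 0.113) in PC3. TUBB2B thus took 26.8% and 33.1% of the counts of this near-identical pair in DU145 sensitive libraries, 46.1% and 62.3% in DU145 resistant, 1.17% and 5.65% in PC3 sensitive and 71.2% and 63.6% in PC3 resistant libraries. The order of the pair was the same in both sensitive groups, with TUBB2A ahead, and TUBB2B was ahead in 3 of the 4 resistant libraries.

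The regions before the start sites of the pair are shown because the coding sequences hardly differ while the levels do. Both lie on the minus strand of chromosome 6 and are the 250 bases upstream of the RefSeq start (GRCh38.p14), at chr6:3157545-3157794 for TUBB2A and chr6:3227654-3227903 for TUBB2B, written 5′ to 3′ on the coding strand. Capitals mark 4 searched motifs on either strand, the TATA box (TATAAA), the CCAAT box (CCAAT), the GC box (GGGCGG) and the E-box (CACGTG).
TUBB2A: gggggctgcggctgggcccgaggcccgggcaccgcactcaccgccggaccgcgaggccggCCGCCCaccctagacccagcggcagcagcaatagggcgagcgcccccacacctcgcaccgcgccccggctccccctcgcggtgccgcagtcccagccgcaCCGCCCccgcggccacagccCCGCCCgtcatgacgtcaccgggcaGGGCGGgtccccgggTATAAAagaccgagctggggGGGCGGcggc
TUBB2B: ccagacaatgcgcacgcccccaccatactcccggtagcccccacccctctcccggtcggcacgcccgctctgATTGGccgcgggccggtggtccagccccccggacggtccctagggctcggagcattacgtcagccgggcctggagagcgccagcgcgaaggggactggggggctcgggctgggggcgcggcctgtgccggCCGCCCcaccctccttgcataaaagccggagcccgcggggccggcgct
In an alignment of 262 columns 50.4% were identical. The TUBB2A region held 1 TATA box at position -30 and 5 GC boxes, and the TUBB2B region 1 CCAAT box at -178 and 1 GC box at -48, counted from the start site. Of 35116 regions of the same length, 10.7% held the TATA box letters, 32.0% CCAAT, 42.6% GGGCGG and 6.3% CACGTG. The genes lie 65780 bases apart. PSMG4, which overlaps TUBB2B on the opposite strand, was at 16.2 to 17.9 CPM in DU145, where its groups overlapped. In PC3 it was at 23.7 and 23.3 CPM in sensitive and 21.7 and 16.7 CPM in resistant libraries, apart and in the other direction from TUBB2B.

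TUBB3, class III beta tubulin, had low counts in both lines. How reads from the 92.8% of its windows that also lie in the read-through gene were counted is not known. The level of TUBB3 is uncertain to that extent. Its CPM was 24.8 and 15.9 in DU145 sensitive, 11.9 and 9.41 in DU145 resistant, 8.59 and 6.26 in PC3 sensitive and 7.14 and 4.90 in PC3 resistant libraries. The DU145 groups did not overlap and the PC3 groups did. In DU145 the log2 fold change was -0.93 (SE 0.28, adjusted p = 0.0316), a 1.91-fold lower level. This call rested on single libraries, since the log2 fold change was -0.56 (adjusted p = 0.249) without DU145 sensitive replicate 1, -1.12 (0.0503) without resistant replicate 1 and -0.75 (0.149) without resistant replicate 2. In PC3 it was -0.30 (SE 0.29, adjusted p = 0.455), and the difference between the lines was 0.63 (SE 0.40, adjusted p = 0.258). Sensitive PC3 cells were below sensitive DU145 cells by a log2 difference of -1.45 (SE 0.29, adjusted p = 0.0014). MC1R, which lies beside TUBB3 and is joined to it in the read-through gene, moved from 12.1 and 13.1 to 7.001 and 7.55 CPM in DU145. In PC3 it stood at 4.14 and 3.21 CPM in sensitive and 7.29 and 5.99 CPM in resistant libraries, where TUBB3 did not pass, and its part in the TUBB3 counts was not tested. The summed neuronal markers SYP, CHGA, ENO2 and NEFL were at 66.4 to 75.7 CPM in DU145 sensitive and 35.8 to 47.7 CPM in DU145 resistant libraries, and their part in the lower TUBB3 level was not tested either. Of the 4, ENO2 was lower (log2 fold change -1.12, adjusted p = 0.00492) and SYP was higher (1.39, adjusted p = 0.00828), from 2.86 and 2.60 to 5.21 and 9.08 CPM.

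TUBB4A, class IVa beta tubulin, was higher in resistant PC3 cells. It was at 29.8 and 22.3 CPM in DU145 sensitive, 19.8 and 19.2 in DU145 resistant, 41.0 and 35.1 in PC3 sensitive and 56.0 and 56.7 in PC3 resistant libraries. The groups were apart in both lines. The log2 fold change was 0.57 (SE 0.17, adjusted p = 0.0221) in PC3, or 1.48-fold, and -0.42 (SE 0.17, adjusted p = 0.0915) in DU145. The lines differed by 0.99 (SE 0.24, adjusted p = 0.00899). Without any 1 of the 4 PC3 libraries the PC3 call was lost. Its adjusted p was then 0.0609 and 0.191 without sensitive replicates 1 and 2, and 0.0721 and 0.087 without resistant replicates 1 and 2, with log2 fold changes from 0.45 to 0.68. The difference between the lines was lost without PC3 sensitive replicate 2 (0.87, adjusted p = 0.0539). The DU145 value passed without sensitive replicate 2 (-0.62, adjusted p = 0.0402).

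TUBB, TUBB4B and TUBB6, which made up most of the beta tubulin, did not pass in either line. TUBB was at 1417 and 1131 CPM in DU145 sensitive, 1234 and 1105 in DU145 resistant, 1929 and 1546 in PC3 sensitive and 1690 and 1765 in PC3 resistant libraries. Resistant and sensitive libraries overlapped in both lines, and the log2 fold changes were -0.12 (SE 0.17, adjusted p = 0.637) in DU145 and -0.01 (SE 0.17, adjusted p = 0.981) in PC3. TUBB4B was at 466.9 and 332.2 CPM in DU145 sensitive, 610.9 and 422.1 in DU145 resistant, 482.7 and 372.6 in PC3 sensitive and 460.6 and 526.0 in PC3 resistant libraries. These overlapped too, at 0.37 (SE 0.22, adjusted p = 0.244) and 0.21 (SE 0.22, adjusted p = 0.507). TUBB6 was at 215.5 and 129.7 CPM in DU145 sensitive, 289.7 and 195.7 in DU145 resistant, 59.4 and 60.5 in PC3 sensitive and 80.8 and 70.0 in PC3 resistant libraries. Its groups overlapped in DU145 (0.49, SE 0.24, adjusted p = 0.151) and were apart in PC3 (0.33, SE 0.24, adjusted p = 0.312). The DU145 value of TUBB6 passed without sensitive replicate 1 (0.93, adjusted p = 0.022), without resistant replicate 2 (0.77, adjusted p = 0.0437) and with no filter on low counts (adjusted p = 0.0274).

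TUBA4A, an alpha isotype encoded without the terminal tyrosine, passed in both lines with opposite signs. It was at 26.2 and 23.6 CPM in DU145 sensitive, 58.8 and 42.9 in DU145 resistant, 125.3 and 104.9 in PC3 sensitive and 41.4 and 39.3 in PC3 resistant libraries. All neighbouring groups in the order of levels were apart, with PC3 sensitive highest, then DU145 resistant, PC3 resistant and DU145 sensitive. It rose in DU145 with a log2 fold change of 1.03 (SE 0.17, adjusted p = 0.00151), or 2.04-fold, and fell in PC3 with -1.51 (SE 0.17, adjusted p = 9.3e-05), a 2.85-fold lower level. The difference between the lines was -2.54 (SE 0.24, adjusted p = 3.32e-05). Leaving out each library in turn kept these calls, at 0.77 to 1.27 in DU145 and -1.64 to -1.38 in PC3. The opposite-strand gene STK16 shares 28.9% of the windows of TUBA4A, and its level was 30.2 and 38.1 CPM in DU145 sensitive, 17.7 and 27.4 in DU145 resistant, 26.2 and 27.2 in PC3 sensitive and 26.2 and 30.2 in PC3 resistant libraries. Both resistant DU145 libraries were thus below both sensitive ones for STK16, where TUBA4A was higher, and the PC3 groups overlapped. The part of STK16 in the TUBA4A counts was not tested. The summed neuronal markers were at 399.8 to 479.5 CPM in PC3 sensitive and 194.7 to 309.7 in PC3 resistant libraries, with CHGA at 0.0303 CPM or less throughout. The lower sum in PC3 is that of NEFL alone (log2 fold change -1.39, adjusted p = 0.000971), while ENO2 (0.24, adjusted p = 0.439) and SYP (0.10, adjusted p = 0.852) did not pass. Its part in the lower TUBA4A level was not tested, and in DU145 the sum was lower where TUBA4A was higher.

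TUBA1A, an alpha isotype abundant in developing neurons, was higher in resistant DU145 cells. It was at 42.1 and 37.3 CPM in DU145 sensitive, 70.0 and 108.6 in DU145 resistant, 49.6 and 60.7 in PC3 sensitive and 48.9 and 61.5 in PC3 resistant libraries. The DU145 groups did not overlap and the PC3 groups nearly coincided. The log2 fold change was 1.17 (SE 0.21, adjusted p = 0.00235) in DU145, or 2.25-fold, and 0.85 to 1.44 when each library was left out in turn, with the call kept. In PC3 it was 0.00 (SE 0.21, adjusted p = 1), and the difference between the lines was -1.17 (SE 0.30, adjusted p = 0.0118). TUBA1B was at 270.9 and 200.7 CPM in DU145 sensitive, 327.0 and 260.8 in DU145 resistant, 419.7 and 341.0 in PC3 sensitive and 423.2 and 371.3 in PC3 resistant libraries. Its resistant and sensitive libraries overlapped in both lines, with log2 fold changes of 0.32 (SE 0.19, adjusted p = 0.238) and 0.06 (SE 0.19, adjusted p = 0.829). TUBA1C, the main alpha tubulin gene outside the 10, had log2 fold changes of 0.27 (SE 0.20, adjusted p = 0.34) and 0.29 (SE 0.20, adjusted p = 0.286).

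The 7 beta isotypes together were at a similar level in resistant and sensitive cells, while the 3 alpha isotypes together were higher in resistant DU145 cells. The beta sum was 2174 and 1648 CPM in DU145 sensitive, 2194 and 1786 in DU145 resistant, 2531 and 2030 in PC3 sensitive and 2340 and 2461 in PC3 resistant libraries. Resistant over sensitive this was 1.04-fold in DU145 and 1.05-fold in PC3, within the spread of the libraries. The alpha sum was 339.3 and 261.6 CPM in DU145 sensitive and 455.8 and 412.3 in DU145 resistant libraries, without overlap and 1.45-fold higher on average. In PC3 it was 594.7 and 506.7 in sensitive and 513.5 and 472.2 in resistant libraries, which overlapped (0.895-fold). The ratio of alpha to beta CPM was therefore 0.156 and 0.159 in DU145 sensitive, 0.208 and 0.231 in DU145 resistant, 0.235 and 0.250 in PC3 sensitive and 0.220 and 0.192 in PC3 resistant libraries. The alpha sum leaves out TUBA1C, at 157.0 to 338.7 CPM, while the beta tubulin genes outside the 7 summed to at most 2.80 CPM. The ratio therefore covers only part of the alpha tubulin. It also depends on how reads from shared stretches were counted, since 12.9% of the TUBA1B windows were unique, against 67.3% for TUBB. Alpha tubulin genes outside the 3 together stood at 1.21-fold in DU145 and 1.22-fold in PC3, resistant over sensitive. No test was run on these sums, which are over chosen genes.

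Within the beta sum of CPM, the TUBB share was lower and the TUBB4B share higher in the resistant libraries of both lines, with no overlap. This was not particular to them. The small TUBB2A and TUBB2B shares were also higher and the TUBB3 share lower in both lines without overlap. The TUBB4A share was lower in DU145 and higher in PC3, again without overlap. The TUBB share was 65.2% and 68.7% in DU145 sensitive, 56.2% and 61.9% in DU145 resistant, 76.2% and 76.2% in PC3 sensitive and 72.2% and 71.7% in PC3 resistant libraries. The TUBB4B share was 21.5% and 20.2%, then 27.8% and 23.6%, in DU145, and 19.1% and 18.4%, then 19.7% and 21.4%, in PC3. TUBB6 had 9.91% and 7.87% in DU145 sensitive and 13.2% and 10.96% in DU145 resistant libraries, but 2.35% to 3.45% in PC3, where the groups overlapped. TUBB2B, despite its large fold change, had at most 1.37% of the beta sum in any library, and TUBB3 at most 1.14%. The TUBB3 share depends on how reads shared with its read-through gene were counted, which is not known. Per kilobase of the MANE Select transcript the mean TUBB share was 57.3% and 48.9% in DU145 sensitive and resistant cells, and 67.5% and 62.8% in PC3. Shares of 1 sum depend on each other, so these are not separate results.

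Within the alpha sum the shares of TUBA1B and TUBA4A differed in opposite directions in the lines. The TUBA1B share was 79.9% and 76.7% in DU145 sensitive and 71.8% and 63.3% in DU145 resistant libraries, but 70.6% and 67.3% in PC3 sensitive and 82.4% and 78.7% in PC3 resistant libraries. The TUBA4A share was 7.74% and 9.02%, then 12.9% and 10.4%, in DU145, and 21.1% and 20.7%, then 8.07% and 8.33%, in PC3. The TUBA1A share was 12.4% and 14.3%, then 15.4% and 26.3%, in DU145, without overlap, and overlapped in PC3 at 8.35% and 12.0%, then 9.52% and 13.0%. The TUBA1B difference, resistant minus sensitive, was -10.8 percentage points in DU145 and 11.6 in PC3. Taken over every alpha tubulin gene instead of these 3, it was -3.96 and 2.64.

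**Figure D4:**
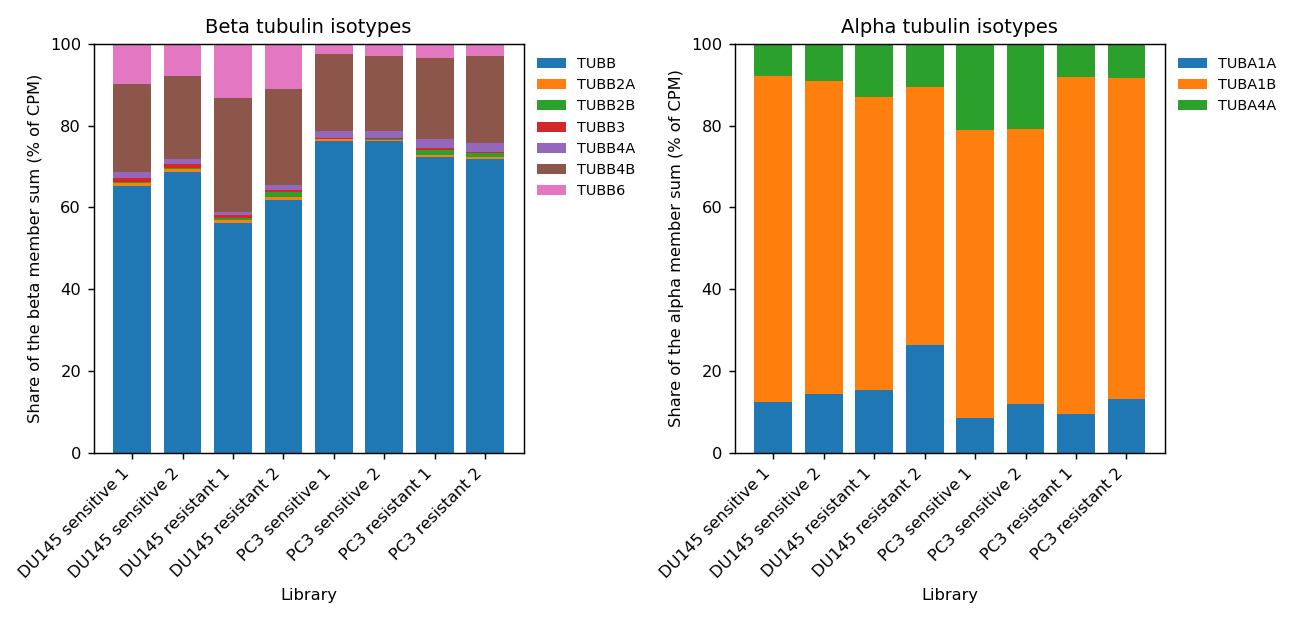
Share of each isotype in the beta sum (left) and the alpha sum (right) of CPM, in percent, as 1 stacked bar per library. TUBB is lower in resistant than in sensitive libraries of both lines, and the TUBA4A share is near 21% only in PC3 sensitive libraries.

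The sensitive variants of the lines also differed from each other. Of the 10 isotypes, TUBB, TUBB4A, TUBA1B and TUBA4A were higher and TUBB2B, TUBB3 and TUBB6 lower in sensitive PC3 than in sensitive DU145 cells, where 57.8% of all tested genes were called (28.6% higher and 29.2% lower). The largest of these beside TUBB2B was TUBA4A, with a log2 difference of 2.21 (SE 0.18, adjusted p = 2.19e-06), or 4.62-fold. TUBB6 differed by -1.53 (SE 0.24, adjusted p = 0.000309). TUBB (0.45, SE 0.17, adjusted p = 0.0437), TUBB4A (0.55, SE 0.17, adjusted p = 0.0168) and TUBA1B (0.69, SE 0.19, adjusted p = 0.00876) were each lost without DU145 sensitive replicate 2, at adjusted p of 0.302, 0.163 and 0.0998, or without PC3 sensitive replicate 1, at 0.297, 0.137 and 0.0801. TUBB was also lost without PC3 resistant replicate 1 (0.0504) or 2 (0.0511), under RLE scaling (0.0531) and with a filter of 1 CPM in 4 libraries (0.0608). TUBA1A, at 0.47 (SE 0.21, adjusted p = 0.0757), passed with no filter on low counts (0.0295) and without DU145 resistant replicate 1 (0.028) or 2 (0.0296). The 2 comparisons within the lines share their sensitive libraries with this one.

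Tubulin is folded by prefoldin, which hands new chains to the chaperonin CCT, and then by the tubulin cofactors, which join alpha and beta into dimers. In resistant DU145 cells 4 of 6 prefoldin subunits and 5 of 8 CCT subunits were higher and none lower, where 12.4% of all tested genes were higher and 15.4% lower, with median log2 fold changes of 0.49 and 0.52 against 0 over all tested genes. The largest were CCT2 (1.00, SE 0.18, adjusted p = 0.00207), TCP1 (0.95, SE 0.17, adjusted p = 0.00236) and the prefoldin subunits PFDN1 (0.87, SE 0.13, adjusted p = 0.000863) and PFDN4 (0.71, SE 0.16, adjusted p = 0.00748). In PC3, 18.6% of all tested genes were higher and 17.0% lower. There 1 prefoldin subunit was higher (PFDN4, 0.61, adjusted p = 0.0113) and 2 were lower (PFDN5, -0.66, adjusted p = 0.00812, and VBP1, -0.60, adjusted p = 0.00618). Of the CCT subunits 1 was higher (CCT5, 0.94, adjusted p = 0.000884). The median log2 fold changes were -0.36 over prefoldin and 0.02 over CCT, against 0.01 over all tested genes. VBP1 was higher in DU145 (0.51, adjusted p = 0.0187).

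The list of tubulin cofactors held 7 genes, TBCA, TBCB, TBCC, TBCD, TBCE, TBCEL and ARL2. Of these, 2 passed in DU145, 1 of them higher, and 3 passed in PC3, 1 of them higher. Of all tested genes, 27.8% passed in DU145 and 35.6% in PC3. The 2 in DU145 were ARL2 and TBCEL, and TBCA, TBCB, TBCC, TBCD and TBCE did not pass there. ARL2, a small GTPase that works with the cofactors, was lower in DU145 (-2.05, SE 0.18, adjusted p = 2.61e-05) and higher in PC3 (1.17, SE 0.17, adjusted p = 0.000483). TBCEL was higher in DU145 (0.67, adjusted p = 0.00608), and TBCD (-0.65, adjusted p = 0.0368) and TBCA (-0.44, adjusted p = 0.0358) were lower in PC3. TTC5, which binds nascent tubulin and triggers decay of its mRNA when free tubulin is in excess, was lower in DU145 (-0.65, SE 0.16, adjusted p = 0.0119), and at -0.02 (adjusted p = 0.939) in PC3. SCAPER, which acts with it, did not pass in either line (0.18 and 0.03). Of 12 other tubulin genes 9 were tested, with 1 higher and 2 lower in DU145 and 1 higher in PC3, against the same shares of all tested genes. They included delta tubulin TUBD1 (-1.04, adjusted p = 0.00857) in DU145 and gamma tubulin TUBG2 (0.69, adjusted p = 0.0188) in PC3. TUBG2 was low in PC3, at 4.69 and 4.25 CPM in sensitive and 7.0 and 7.48 CPM in resistant libraries. Over these 5 lists together, the 11 genes higher in DU145 became 5 without DU145 sensitive replicate 2 and 6 without resistant replicate 1, and the 4 lower became 2 without sensitive replicate 1 or resistant replicate 2. In PC3 the 4 higher became 2 without sensitive replicate 2, and the 4 lower became 1 without any 1 of the 4 PC3 libraries.

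The genes whose pattern over the 8 libraries was most like that of TUBB2B, by Euclidean distance of log2 CPM centred on each gene's mean among 10730 candidates, were NUDT11 (distance 1.81), AMOT (1.82) and HOXB9 (1.91). NUDT11 was at 13.1 and 10.97 CPM in DU145 sensitive, 23.5 and 19.5 in DU145 resistant, 0.152 and 0.292 in PC3 sensitive and 46.1 and 42.2 in PC3 resistant libraries. It thus had the same order of groups as TUBB2B. For TUBA4A they were PARVA (0.379), PLEKHN1 (0.389) and EEF1A2 (0.443), and EEF1A2 was at 176.2 and 125.3 CPM in DU145 sensitive, 359.8 and 239.7 in DU145 resistant, 594.2 and 552.3 in PC3 sensitive and 210.4 and 192.9 in PC3 resistant libraries. A flat gene would lie at 7.16 from TUBB2B and 2.28 from TUBA4A.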

How the data were processed

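The 10 genes and the related lists were chosen with earlier results of these data known. The deposited values are unnormalized gene counts in separate files for the 8 libraries, which the authors prepared with a SMART-seq kit, and Bowtie and hg38 are named for the alignment. The sources used here give no Bowtie version, counter, annotation, strand setting or rule for reads with several matches. There are no molecular identifiers. The paper's text describes single cell libraries, and its single cell data were not analysed here. Total counts ran from 31685148 to 43045127 per library.

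Groups came from the sample labels. Of 60554 rows, 20238 passed filterByExpr by group. In edgeR 4.0.16 (R 4.3.3), 1 model with group means covered the 8 libraries (TMM factors 0.951 to 1.038, 4 residual degrees of freedom, common biological coefficient of variation 17.1%). Contrasts used its quasi-likelihood test, Benjamini-Hochberg adjusted over all genes tested, at 0.05. A standard error is the size of the log2 fold change over the square root of F. CPM were computed from the deposited counts and the TMM library sizes. Replicate libraries differed by more than sampling noise (chi-square per degree of freedom 18.4 to 47.9).

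All 10 members were named, with up to 4 genes per other list and line, those past the threshold with the largest change and a line mean of 8 CPM or more. Some genes outside this rule are named as well, among them TUBG2, which was below 8 CPM in every PC3 library. Coordinates, transcripts and windows came from GENCODE 44 on GRCh38 and upstream regions from RefSeq (all 10 matched, some with several starts). Alternatives were RLE scaling, DESeq2 1.42.0, no filter, 1 CPM in 4 libraries, fits on 1 line, a block for the replicate number, leaving out each library, an adjusted p under 0.01, a 2-fold limit, and other lengths and sums for shares. Shares per kilobase of the MANE Select transcript were added after the data were seen. The steps were tested on simulated counts. Some items are not reported here.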

Additional observations from a re-analysis of the deposited data

Results flagged for a closer look

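The change from sensitive to resistant cells differed between the lines for 4 of the 10 isotypes by the test of the difference itself (edgeR's quasi-likelihood test, Benjamini-Hochberg adjusted). As the PC3 log2 fold change minus the DU145 log2 fold change, TUBB2B stood at 4.70 (adjusted p = 0.000177), rising in both lines and more in PC3. TUBA4A stood at -2.54 (adjusted p = 3.32e-05), rising in DU145 and falling in PC3. TUBA1A stood at -1.17 (adjusted p = 0.0118), with a rise in DU145 and a value of 0.00 in PC3. TUBB4A stood at 0.99 (adjusted p = 0.00899), but at 0.87 (adjusted p = 0.0539) without PC3 sensitive replicate 2. Such a difference was called for 34.3% of all tested genes.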

How the results depend on the processing

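Of the log2 fold changes of the 10 isotypes under the alternatives, 489 kept their direction and side of the threshold, 18 fell short of it, 11 newly passed and 22 changed sign, and those that changed sign had not passed in the first place. The replicate numbers are not stated to pair the samples, and deviations of same-numbered libraries correlated at 0.323 in DU145 and 0.0861 in PC3. With the replicate number as a block, 5 isotypes were higher and 2 lower in DU145, by TUBB6 (adjusted p = 0.0342), TUBA1B (0.0496) and TUBB4A (0.0482). TUBA1A passed between the sensitive lines (0.0332), and 7 other tubulin and folding genes were lower in PC3, as with PC3 fitted alone (7).

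At an adjusted p under 0.01, 0 isotypes were lower in DU145 and 1 higher in PC3, 1 had a lower change in PC3 than in DU145 and 2 were higher in sensitive PC3 than DU145 cells; of the other genes 5 were higher in DU145, and in PC3 2 were higher and 2 lower. With at least 2-fold, 0 isotypes were lower in DU145, 1 was higher in PC3, 1 had a higher change in PC3 and 1 was higher in sensitive PC3 cells; of the other genes 1 was higher in DU145, and in PC3 1 was higher and 0 lower. The construction of these limits makes the counts smaller.

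With each library left out, isotypes higher in DU145 numbered 3 to 4, lower in DU145 0 to 2, higher in PC3 1 to 2, with a higher change in PC3 1 to 2, and higher in sensitive PC3 cells 1 to 5. Other genes numbered 5 to 11 higher and 2 to 5 lower in DU145. In PC3 they numbered 2 to 4 higher and 1 to 5 lower. In these fits the lone library of a group is assumed to vary like the others.

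Signs changed for TUBB in PC3 at 0.024 (no filter), 0.039 (1 CPM in 4 libraries), 0.001 (PC3 alone), 0.004 (block) and -0.164 to 0.159 with a library left out, and for TUBA1A in PC3 at -0.002 (block) and -0.174 to 0.16. With a library left out they changed for TUBB (-0.285 to 0.067) and TUBB2A (-0.056 to 0.392) in DU145, for TUBA1B in PC3 (-0.085 to 0.219), for the difference between lines of TUBB (-0.071 to 0.283), TUBB4B (-0.449 to 0.143) and TUBB6 (-0.591 to 0.169), and for TUBB4B between sensitive lines (-0.141 to 0.379). The cause was not tested. Low counts limit TUBB2B in sensitive PC3 cells, and likenesses between isotypes limit TUBB2A, TUBB2B, TUBA1A and TUBA1B. TUBB3 is limited by the 92.8% of its windows that also lie in its read-through gene. TUBA4A shares 28.9% of its windows with the opposite-strand gene STK16, and the strand setting is not known.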

Other observations

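The genes around TUBB2B and TUBA4A, looked up after the values were seen, are given here with their own values. PSMG4, which overlaps TUBB2B, was left out of this lookup. The nearest tested protein-coding gene wholly outside TUBB2B, on the other side from TUBB2A, was SLC22A23, 37232 bases away. Its log2 fold changes were -1.24 (SE 0.20, adjusted p = 0.00109 in edgeR's quasi-likelihood test) in DU145 and 1.15 (SE 0.20, adjusted p = 0.00117) in PC3. BPHL, which overlaps TUBB2A on the opposite strand, stood at -0.82 (adjusted p = 0.0121) and 0.85 (adjusted p = 0.00758). FAM50B, 617643 bases away, stood at -1.23 (adjusted p = 0.0082) in DU145 and -6.14 (adjusted p = 4.46e-06) in PC3, the opposite direction to TUBB2B. DNAJB2, 1440 bases from TUBA4A, stood at 0.97 (adjusted p = 0.0142) in DU145 and -0.40 (adjusted p = 0.228) in PC3, while GLB1L, 4232 bases away on the other side, did not pass in either line (0.07 and 0.41). Farther out, ATG9A (-0.57, adjusted p = 0.0145) and DNPEP (-0.88, adjusted p = 0.00251) were lower in PC3, as TUBA4A was, and ANKZF1 stood at -0.83 (adjusted p = 0.0543), DES at -0.40 (adjusted p = 0.636). In DU145, ATG9A, ANKZF1 and DNPEP did not pass (-0.33, -0.43 and 0.17) and DES was lower (-6.28, adjusted p = 0.00513). Of the remaining genes looked up around TUBB2B, RIPK1 (0.33 in DU145 and -0.37 in PC3) and PXDC1 (0.35 and -0.32) did not pass in either line.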
